A study of Gallus gallus with 8 samples.

Results

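Loss of BCL6 was examined by comparing 2 arrays of BCL6KO DT40 cells with 3 arrays of WT DT40 cells, 5 of the 8 arrays of the series. DT40 is a chicken B cell line of bursal origin that goes on diversifying its immunoglobulin genes by gene conversion in culture. The BCL6KO cells are labelled BCL6-deficient and the WT cells wild type. The other 3 arrays, labelled DKO for cells deficient in both IRF4 and BCL6, appear below only beside the chromosome medians. The labels give no treatment, no clone and no deletion map, and state separate cultures for WT but not for BCL6KO, so p-values measure the spread between these samples, which may be technical for BCL6KO. Total RNA was hybridised to one-colour Agilent chicken expression arrays. The BCL6KO arrays were scanned in a session of their own and read with a later version of the Feature Extraction software than the WT arrays, so genotype and scan session cannot be told apart in any value below.

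BCL6 is a zinc finger transcriptional repressor of the germinal centre B cell, where it recruits corepressors through its BTB domain and keeps genes of activation, cell cycle arrest and plasma cell differentiation low. In mammals its loss from B cells goes with release of targets such as PRDM1 and with movement towards antibody secretion. IRF4, BLIMP-1 and XBP1 drive that later step, and PAX5, EBF1 and the ETS factors maintain the B cell programme it replaces.

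Levels are log2 processed signals from which the array's 75th percentile was subtracted, so a level of 0 equals that percentile, and a difference of 1 is 2-fold. A gene entry was tested if its probe stood well above background on 2 or more arrays, which a gene expressed in 1 group alone can meet. Of 43803 probe spots per array, between 75.1% and 79.2% were well above background on the BCL6KO arrays and between 62.4% and 68.2% on the WT arrays. The number of arrays limits the precision. The brightest BCL6 probe read -4.49 and -4.97 in BCL6KO and 2.57, 2.58 and 2.53 in WT. That probe was well above background on every array, those of BCL6KO included. The groups did not overlap, and the difference was -7.29 ± 0.16 (log2, SE; limma adjusted p = 1.97e-05), with all 4 BCL6 probes lower. IRF4 read 4.79 and 5.39 in BCL6KO and 3.16, 2.96 and 2.92 in WT, again without overlap.

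The 2 genotypes differed across much of the array. Of 23547 entries tested, limma called 15464 at an adjusted p under 0.05 (65.7%), of which 9492 were higher in BCL6KO (40.3%) and 5972 lower (25.4%). With a change of at least 2-fold as well, 5663 entries were higher (24%) and 2813 lower (11.9%). The correlation of levels was 0.994 between WT arrays, 0.985 between the BCL6KO arrays and 0.868 to 0.876 between genotypes. The direction of the balance moved with the scaling. Higher entries made up 61.4% of the calls with the 75th percentile, 46% with median scaling, 51.6% with quantile normalization, 54.3% with cyclic loess and 53.3% when a probe had to be above background on all 5 arrays. They made up 76.6% with normexp background correction on the backgrounds as recorded. Median scaling shifted the median of genes with a symbol from 0.063 to -0.23, and changes smaller than that shift have no settled direction.

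The 4311 entries with a gene symbol form the background for what follows. Of these, 1489 were called higher (34.5%) and 1383 lower (32.1%), and at 2-fold or more 811 were higher (18.8%) and 605 lower (14%). The levels of the 2 groups did not overlap in 3485 of the 4311 genes. A lack of overlap in a named gene is thus the common case here. The list counts and medians below are read against these shares, and list medians are given relative to the median of all 4311 genes (called relative medians). Rises were concentrated among dim genes. When genes were ranked by mean level and cut into 4 equal bins, 462 of the 1078 genes in the dimmest bin were higher at 2-fold or more and 139 lower, and in the brightest bin 52 were higher and 111 lower. Among the 3665 genes above background on all 5 arrays, 1085 were higher and 1298 lower. Their median relative to all 4311 genes was -0.11. Relative medians over list members above background on all arrays are read against that value. The spread of changes narrowed towards high WT levels in the plot of change against level.

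**Figure D1:**
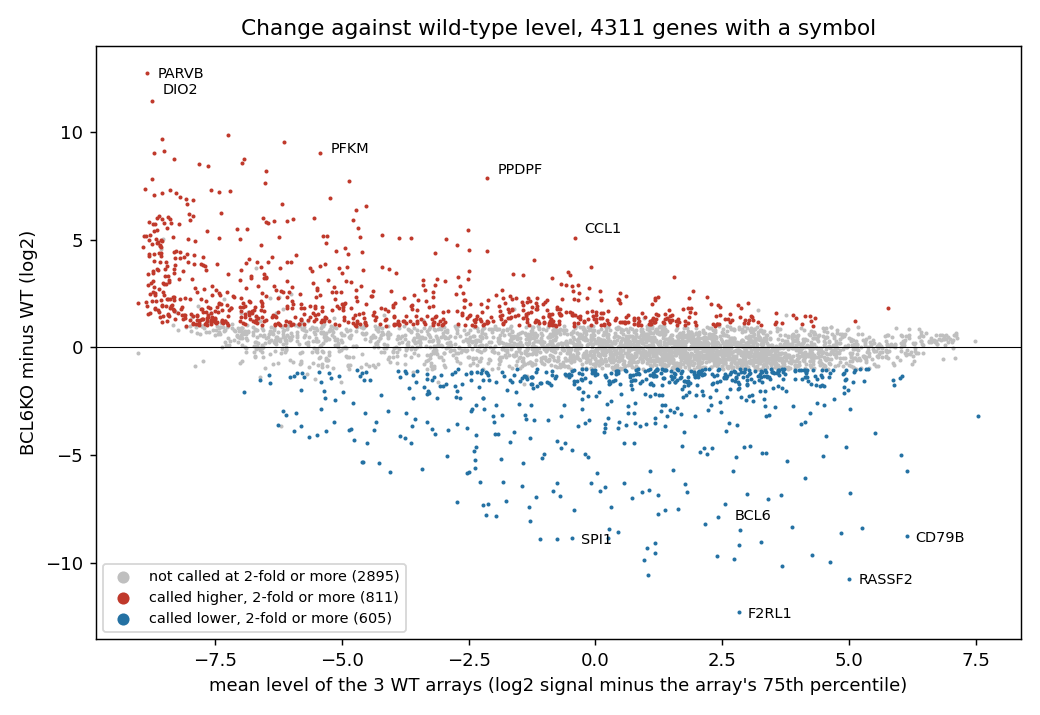
Difference between the mean BCL6KO and mean WT level of each of 4311 genes with a symbol (vertical axis, log2) against its mean WT level (horizontal axis, log2 signal minus the array's 75th percentile). Red marks 811 genes called higher and blue 605 called lower at 2-fold or more; many of the largest rises start from low WT levels, and the largest falls from levels well above the floor of the array.

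Among genes above background on all 5 arrays, the steepest falls included regulators of leukocyte signalling and adhesion. PTPN6, the SHP-1 phosphatase that dampens antigen receptor signals, read -5.44 and -5.39 in BCL6KO and 4.36, 4.27 and 4.14 in WT. ITGB2, the shared beta chain of leukocyte integrins, read -5.81 and -6.88 against 2.85, 2.81 and 2.83. ADA, which deaminates adenosine, read -4.38 and -4.55 against 3.90, 3.84 and 3.85. In none of these 3 genes did the groups overlap, and the differences were -9.67 ± 0.10, -9.18 ± 0.33 and -8.33 ± 0.10 (log2, SE; limma adjusted p at most 6.21e-05). HVCN1, a voltage-gated proton channel, fell by 8.62 and STMN2, a microtubule-destabilising protein best known from neurons, fell by 8.41. Genes well above background in WT and on neither BCL6KO array gave lower bounds. For each array without signal above background, the reference was the gene's own signal or the array's dimmest signal well above background, whichever was higher. TLR7, an RNA sensor of endosomes, was at least 459-fold lower, and the microsomal glutathione transferase MGST1 at least 246-fold lower.

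The steepest rises among genes above background on all 5 arrays began below the 75th percentile of the WT arrays, though not all from the dimmest levels. PFKM, the muscle-type phosphofructokinase of glycolysis, read 3.36 and 3.89 in BCL6KO and -5.59, -5.14 and -5.54 in WT, the largest such rise at 9.05 ± 0.23 (limma adjusted p = 2.54e-05), with all 4 probes higher. PPDPF read 5.92 and 5.56 in BCL6KO and -2.09, -2.19 and -2.12 in WT. APP, the amyloid precursor protein, read 2.18 and 1.89 against -4.61, -4.44 and -4.49. CREB3L2, an ER-anchored bZIP factor, read 1.32 and 1.96 against -4.57, -4.82 and -4.77. The groups lay far apart in PPDPF, APP and CREB3L2, by 7.88 ± 0.14, 6.55 ± 0.12 and 6.36 ± 0.22 (log2, SE; limma adjusted p at most 5.61e-05). KCNMB1, the beta subunit of a calcium-activated potassium channel, rose by 7.71. PCDHGC3, a clustered protocadherin, rose by 6.93 and the deubiquitinase USP2 by 5.43. VDAC1, a channel of the outer mitochondrial membrane, was well above background only on the BCL6KO arrays and was at least 168-fold higher there. The levels on each array are shown for the 12 largest differences in each direction.

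**Figure D2:**
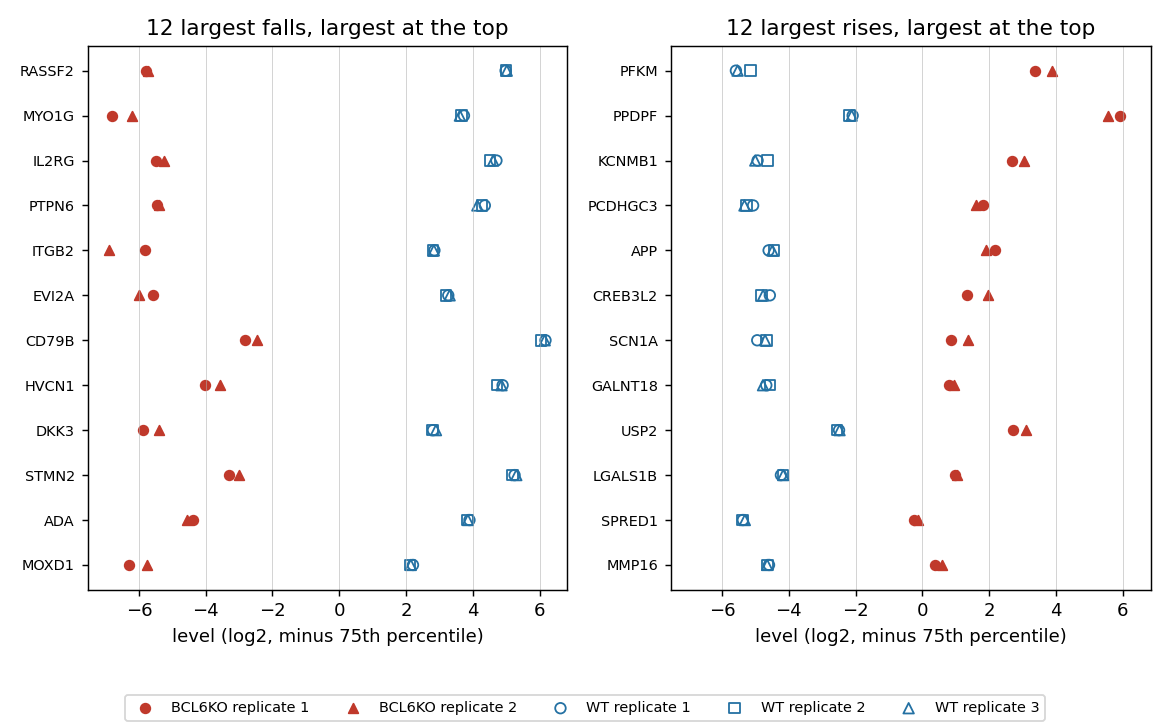
Level on each array (horizontal axis, log2 signal minus the array's 75th percentile) of the 12 genes with the largest falls (left) and the 12 with the largest rises (right) among called genes above background on all 5 arrays. Red filled symbols are the 2 BCL6KO arrays and blue open symbols the 3 WT arrays; no gene's groups overlap, and the replicates lie closer to each other than to the other genotype.

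Most measured genes of the B cell receptor pathway fell, among them inhibitory phosphatases. This cascade passes antigen binding from the receptor chains through SRC-family and SYK kinases to adaptors, phospholipase and calcium, with phosphatases opposing it. Of 28 tested members, 20 were lower and 2 higher (18 and 1 at 2-fold or more), and the list median relative to all genes was -3.46. The kinase LYN read -1.69 and -1.82 in BCL6KO and 5.07, 4.91 and 5.06 in WT. PIK3AP1, the adaptor that links the receptor to PI3 kinase, read -3.42 and -4.26 against 2.98, 3.0 and 2.99. RASGRP3, which couples diacylglycerol to RAS, read -5.46 and -5.79 against 1.25, 1.21 and 1.23. The groups did not overlap in these genes. The adaptor LAT2 was at least 15.2-fold lower and the phosphatase PTPN22 at least 9.93-fold lower. In the other direction, the SRC-family kinase FYN was above background on no WT array and at least 17.2-fold higher in BCL6KO. The other member called higher was the inositol trisphosphate receptor ITPR1, by 0.79. In a separate list of phospholipase, calcium and protein kinase C genes, 10 of 29 were higher and 11 lower, and PRKCA rose by 3.72 ± 0.12 (limma adjusted p = 5.25e-05).

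Surface antigens and PI3 kinase signalling genes were also mostly lower. These lists share members with the B cell receptor list, so their counts are not independent of it. Of 25 genes with a CD number, 17 were lower and 6 higher, with a list median of -3.40 relative to all genes. CD88, the complement C5a receptor, was at least 121-fold lower, and CD72L1 fell by 6.67. CD28 was at least 13.7-fold higher and CD47, a ligand that restrains phagocytes, rose by 1.59. Of 38 genes of PI3 kinase, AKT and mTOR signalling, 20 were lower and 8 higher, with a relative median of -0.57. FOXO1, the forkhead factor that AKT inactivates, read -2.64 and -3.0 in BCL6KO and 2.12, 2.03 and 2.03 in WT, a fall of 4.88 ± 0.14 on the log2 scale without overlap (limma adjusted p = 3.41e-05).

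Transcription factors of haematopoietic cells changed in both directions. Of 10 tested ETS factors, 8 were lower and none higher, with a relative median of -1.16, and 5 were lower at 2-fold or more. SPI1, known as PU.1 and needed for both myeloid and B cells, was well above background on all 3 WT arrays and on neither BCL6KO array, and was at least 149-fold lower. ETS1 read -2.29 and -2.55 in BCL6KO and 0.58, 0.74 and 0.60 in WT. FLI1 read 1.32 and 2.05 against 3.29, 3.29 and 3.27. Both ETS1 and FLI1 were lower on each BCL6KO array than on any WT array. The 31 tested RUNX, GATA, MYB and IKAROS factors included 13 lower and 10 higher, with a relative median of -0.24. BCL11A, a zinc finger factor of early B cells, fell by 3.90, and MYBL2, a cell cycle relative of MYB, by 2.03. HHEX, a homeobox factor of haematopoietic progenitors, fell by 2.85. The 29 tested E protein, ID protein and bHLH genes included 13 higher and 6 lower, with a relative median of 0.65. The E protein gene TCF3 rose by 2.52 ± 0.10 (limma adjusted p = 8.6e-05). Among the ID proteins, which bind E proteins and block their attachment to DNA, ID1 rose by 2.53 and ID3 fell by 2.09.

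All 7 tested interferon regulatory factors were called, 4 higher and 3 lower. IRF1 read -4.25 and -5.84 in BCL6KO and -0.57, -0.70 and -0.55 in WT. IRF5, which acts downstream of Toll-like receptors, read -6.10 and -6.04 against -1.59, -1.67 and -1.76. IRF8, a partner of PU.1 in B cells, read 2.11 and 1.95 against 0.67, 0.57 and 0.58. IRF1 and IRF5 were thus lower on every BCL6KO array and IRF8 higher on every one. IRF7, the amplifier of the type I interferon response, rose by 1.92. Of 19 interferon response genes, 10 were higher and 4 lower, with a relative median of 0.56. SOCS1, which inhibits JAK kinases, fell by 2.60.

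Innate sensing and NF-kB genes were lower more often than higher. Of 11 Toll-like and other innate receptor genes, 6 were lower and 1 higher, with a relative median of -0.74. TLR2 read -5.49 and -7.30 in BCL6KO and -0.11, -0.10 and -0.04 in WT. The groups were separate, although the BCL6KO arrays differed more from each other than the WT arrays did, and the difference was -6.31 ± 0.55 on the log2 scale (limma adjusted p = 0.000727). TLR1A fell by 3.17 and MYD88, the adaptor most Toll-like receptors share, by 2.25, whereas the sorting adaptor TIRAP rose by 1.53. Of 20 NF-kB pathway genes and targets, 10 were lower (6 at 2-fold or more), 3 higher and 7 not called. NFKBIZ, a nuclear IkB protein, fell by 2.70 and the NFKB1 subunit by 2.21. Of 11 TRIM proteins, many of which are antiviral ubiquitin ligases, 7 were lower and 2 higher, and TRIM14 fell by 3.73. Antigen presentation had no common direction, with 5 of 17 genes lower, 3 higher and a relative median of -0.01. Within it, the invariant chain CD74 fell by 5.76 and the cathepsin CTSS, which trims that chain, by 5.30. The 2 probes for TAPBP disagreed in direction, and its brighter probe was 3.37 higher.

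Cell cycle genes fell most clearly at the replication fork. Replication starts at origins marked by the ORC complex, onto which the MCM helicase is loaded and where GINS, clamp loaders and polymerases then assemble. Of 33 tested genes of origin and fork, 26 were lower and 3 higher (16 and 1 at 2-fold or more), and the relative median was -0.98. All 33 were above background on every array. MCM3, a helicase subunit, read 1.46 and 2.12 in BCL6KO and 4.48, 4.31 and 4.29 in WT. GINS1 read 1.92 and 2.70 against 4.73, 4.69 and 4.65. RFC2, of the clamp loader, read 1.03 and 0.44 against 3.05, 2.95 and 3.06. The groups did not overlap in these 3, which fell by 2.57 ± 0.22, 2.38 ± 0.24 and 2.29 ± 0.19 (log2, SE; limma adjusted p at most 0.00122). ORC3, an origin subunit, went the other way and rose by 1.71. CHAF1B, a chaperone that deposits histones behind the fork, fell by 2.19.

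Of 41 cyclins, their kinases and inhibitors, 21 were lower and 8 higher, with a relative median of -0.58. CDK6, a G1 kinase, read -3.66 and -3.75 in BCL6KO and 0.82, 0.69 and 0.76 in WT, a fall of 4.46 ± 0.09 (limma adjusted p = 1.69e-05). The 2 E cyclins, which activate CDK2 at the entry to S phase, moved apart. CCNE1 read -1.35 and -1.07 against -3.37, -3.32 and -3.32 and was higher on both BCL6KO arrays. CCNE2 read 1.24 and 1.19 against 2.96, 2.94 and 3.06 and was lower on both. Of 9 cohesin and condensin genes, 8 were lower and none higher, including SMC4 by 1.48 and RAD21 by 1.18. Of 16 genes of RNA decay and the exosome, 12 were lower and 1 higher, among them the nuclear exonuclease XRN2, which fell by 1.26. Of 37 genes of immunoglobulin gene diversification, 21 were lower and 5 higher. UNG, a glycosylase that removes uracil from DNA, read -3.12 and -3.48 in BCL6KO and -0.69, -0.62 and -0.55 in WT, a fall of 2.68 on the log2 scale without overlap.

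Mitochondrial apoptosis genes and the cytoskeleton held some of the larger opposite changes. BCL2, the antiapoptotic protein that BCL6 represses in mammalian B cells, read -0.42 and -0.52 in BCL6KO and -4.27, -4.16 and -4.17 in WT. BOK, a proapoptotic relative, read -2.73 and -2.78 against 2.24, 2.20 and 2.14. BCL2 was therefore higher by 3.73 ± 0.09 and BOK lower, by -4.95 ± 0.08, with no overlap (limma adjusted p at most 2.3e-05). Over the 11 tested genes of the family, 5 were lower and 2 higher. RAC2, the RAC isoform of blood cells, read -1.47 and -1.62 in BCL6KO and 3.1, 3.02 and 3.02 in WT. RHOB, an endosomal small GTPase, read 1.37 and 1.55 against -3.62, -3.64 and -3.61. RAC2 was lower and RHOB higher on every BCL6KO array, and RHOC rose by 3.75. In the actin machinery, HCLS1, the cortactin relative of blood cells, fell by 6.84, the ARP2/3 subunit ARPC1B by 4.91 and the actin monomer-binding TMSB4X by 3.60, whereas the severing protein GSN rose by 3.44.

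Genes of sterol synthesis and fatty acid oxidation were mostly higher. Sterols are made from acetyl-CoA through HMG-CoA and mevalonate, under control of the SREBP factors and INSIG proteins. Of 14 tested sterol genes, 10 were higher and 2 lower (8 and 1 at 2-fold or more), and the relative median was 1.20. HMGCS1, which makes HMG-CoA, read 3.25 and 4.16 in BCL6KO and 1.96, 1.77 and 1.92 in WT. MSMO1, a demethylating oxidase of the late pathway, read 4.11 and 5.25 against 2.96, 2.66 and 2.96. The groups were separate in both, and the second BCL6KO array was higher than the first in both. The differences were 1.82 ± 0.29 and 1.82 ± 0.36 (log2, SE; limma adjusted p 0.00475 and 0.0101). The cholesterol carrier STARD4 rose by 1.63. GGPS1, at the branch that leads from sterols to protein prenylation, fell by 1.30. Of 14 genes of fatty acid oxidation, 9 were higher and 1 lower, with a relative median of 0.66. PPARA, a nuclear receptor that induces the pathway, read -2.12 and -2.54 in BCL6KO and -5.29, -4.96 and -5.20 in WT. CPT1A, the carnitine transferase that admits fatty acids to mitochondria, read -1.72 and -1.53 against -3.58, -3.64 and -3.58. Both were higher on each BCL6KO array, as was the thiolase ACAA2, by 1.28.

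Of 19 genes of lipid droplets and fatty acid binding, 11 were higher and 1 lower. The 1 that fell was FABP5, a cytosolic fatty acid carrier, at -1.25 and -2.14 in BCL6KO and 2.89, 2.94 and 2.92 in WT. Fatty acid synthesis and desaturation showed no net direction, with 5 of 15 genes higher and 5 lower, although the desaturase SCD rose by 2.19 and the acyl-CoA synthetase ACSL1 by 2.61. Of 18 glycolytic genes, 11 were higher and 3 lower, but only 3 and 1 at 2-fold or more, with a relative median of 0.51. PFKM, described above, held the largest of these rises. LDHA, which reduces pyruvate to lactate, read 4.01 and 3.90 in BCL6KO and 5.16, 4.96 and 5.17 in WT, a fall of 1.14 on the log2 scale. Of 19 subunits of respiratory complexes II to V and cytochrome c factors, 12 were higher and 2 lower, none by 2-fold, with a relative median of 0.49. Of 31 cytosolic ribosomal protein genes, 15 were higher and none lower, with a largest difference of 0.85. Its relative median was 0.25, and the direction of the list did not hold under every setting. It turned to -0.09 with quantile normalization and to -0.18 with normexp correction on the backgrounds as recorded. Under that correction the relative medians of glycolysis and of complexes II to V kept their sign but fell to 0.04 and 0.10.

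Genes of the amino acid response, the ATF4 pathway that senses uncharged tRNA and ER stress, were higher for 9 of 13 and lower for 1, with a relative median of 1.00. That median rested in part on the first BCL6KO array: it was 0.47 without replicate 1 and 1.35 without replicate 2. VLDLR, a lipoprotein receptor induced by ATF4, read -0.78 and -0.18 in BCL6KO and -5.34, -5.26 and -5.32 in WT. CEBPB, a bZIP partner of ATF4, read 0.19 and -2.48 against -3.49, -3.59 and -3.66. Both were above every WT array, but the BCL6KO arrays lay 2.67 apart for CEBPB. Its call (limma adjusted p = 0.0471) was lost under 9 of 17 other settings. Leaving out normexp on the backgrounds as recorded, limma adjusted p ran from 0.0633 to 0.111 in the remaining 8. TRIB2, a pseudokinase, fell by 2.72. The amino acid transporter SLC38A1 rose by 1.36. Of 13 metal transporters, 9 were higher and none lower. SLC40A1, ferroportin, the only known cellular iron exporter, read -0.47 and -0.22 in BCL6KO and -5.08, -4.80 and -4.93 in WT, a rise of 4.60 ± 0.14 (limma adjusted p = 3.83e-05). Transferrin, TF, was at least 24.1-fold lower, with all 6 probes down.

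**Figure D3:**
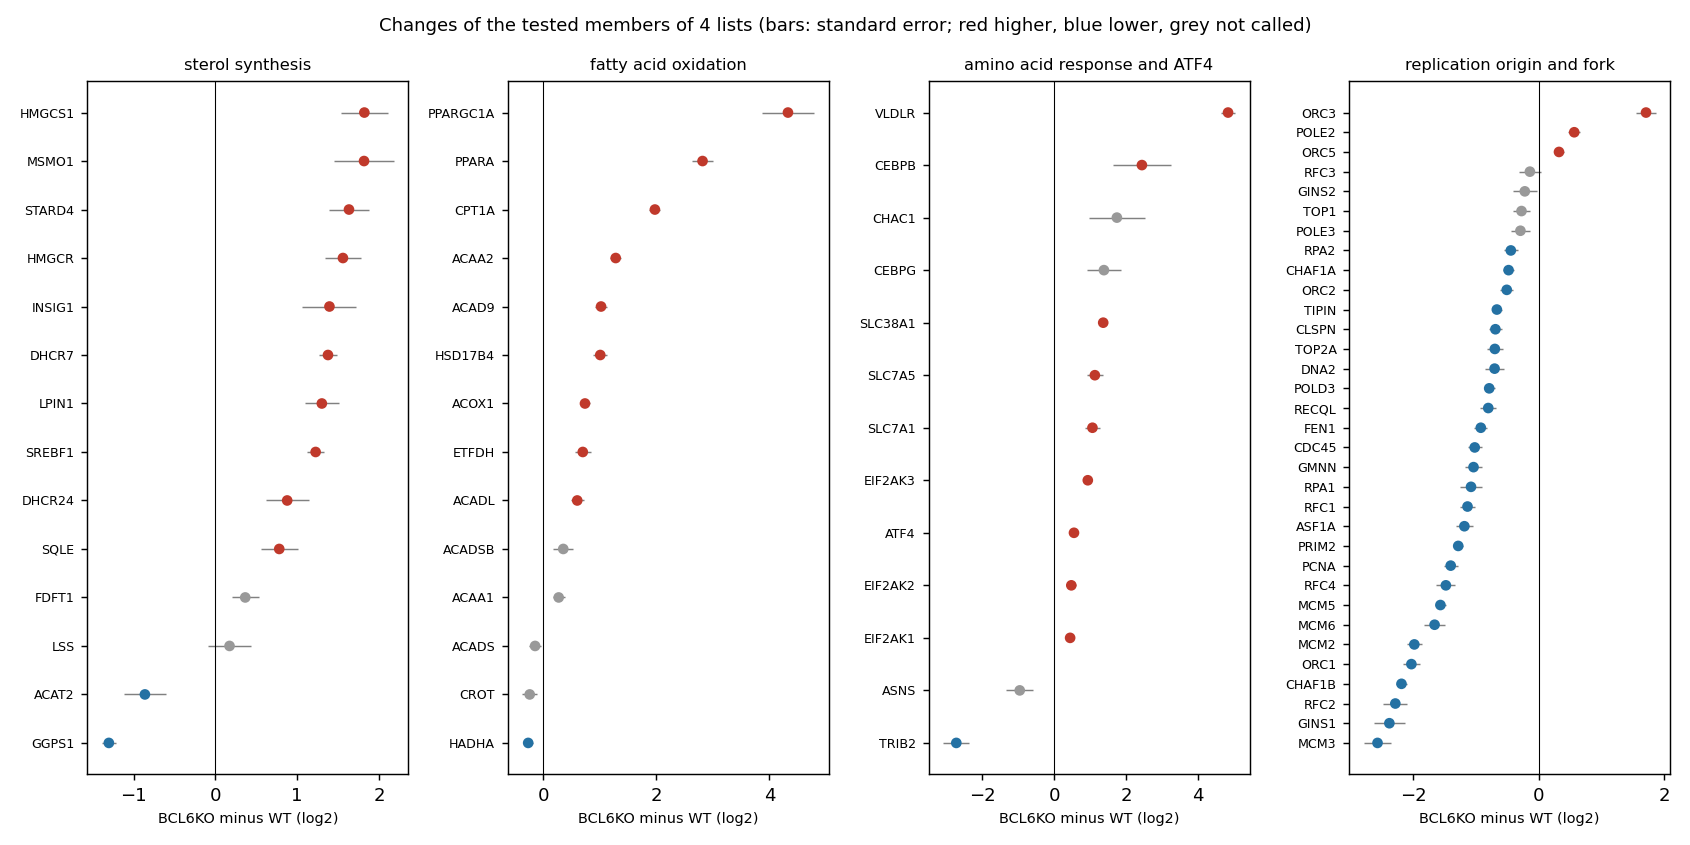
Difference between BCL6KO and WT (horizontal axis, log2) of each tested member of 4 lists, with bars of 1 standard error of the limma fit; red points were called higher, blue lower and grey neither. Sterol synthesis, fatty acid oxidation and the amino acid response lie mostly to the right of 0 and the replication list mostly to the left.

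The secretory programme was higher in part. Of 11 plasma cell marker genes, 8 were higher and 2 lower, with a relative median of 1.36. TNFRSF13B, a receptor for the survival factors BAFF and APRIL, read 2.26 and 2.51 in BCL6KO and -0.43, -0.43 and -0.51 in WT. SUB1, a transcriptional coactivator, read 2.41 and 2.70 against -0.32, -0.31 and -0.43. The groups were separate in both. The 2 plasma cell markers that fell were CD38, by 3.34, and CXCR4, the receptor that homes plasma cells to bone marrow, by 2.89. Of 27 genes of ER folding and degradation, 16 were higher and 4 lower. SEL1L, of the ER ubiquitin ligase complex, rose by 2.89 and the prolyl isomerase FKBP14 by 2.84, while FKBP9, another isomerase of the ER, fell by 3.38 and the oxidase ERO1B by 1.73.

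Genes that BCL6 is known to bind or repress in mammalian B cells did not move as a block. Of 28 tested, 14 were higher and 8 lower, with 8 and 6 at 2-fold or more, and a relative median of 0.30. On no WT array were 4 of the 28 above background. Over the 22 members above background on all arrays, 10 were higher and 6 lower, and the relative median was 0.11. GPR183, which positions B cells at the follicle edge, was at least 20.02-fold higher, and the class IIa deacetylase HDAC9 at least 15.9-fold higher. In the same list TLR7, CXCR4 and CD38 were lower. Of 20 corepressors and ZBTB factors, 11 were lower and 5 higher, BCL6 included. HDAC4 rose by 2.24 and HDAC7 fell by 2.27, and KLHL6, a ubiquitin ligase adaptor needed for germinal centres in mice, fell by 3.07.

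Several lists with many rises were dim in WT, and their counts depend on members that passed the filter through the BCL6KO arrays. Of 28 cadherin, catenin and junction genes, 20 were higher and 1 lower, with a relative median of 1.04, and 9 were on no WT array above background. Over the 17 members above background on all 5 arrays, the relative median was 0.43. PARD3, a scaffold of cell polarity, read -0.03 and -0.47 in BCL6KO and -2.85, -2.66 and -2.73 in WT. Of 33 collagens and matrix proteins, 21 were higher and 3 lower, and 11 were not above background in WT. Their relative median was 0.75, and 0.26 over the 14 above background on all arrays. The laminin chain LAMB2 rose by 3.58 and the collagen lysyl hydroxylase PLOD1 by 2.61, and the collagen VI chain COL6A2 was at least 15.9-fold higher. Of 19 ADAM and matrix protease genes with their inhibitors, 10 were higher and 6 lower, and 3 were not above background in WT. Over the 14 above background on all arrays, 7 were higher and 5 lower. The relative median of the list was 0.91, and 0.52 over those 14. For the full list it was 0.15 when a gene's probes were averaged. MMP16, a membrane-bound metalloprotease, read 0.38 and 0.59 against -4.59, -4.64 and -4.65. TIMP2, a metalloprotease inhibitor, read -3.53 and -3.52 against -0.02, -0.20 and -0.18. MMP16 was higher and TIMP2 lower on both BCL6KO arrays, and MMP2 was at least 45.7-fold higher.

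The values of axon guidance and synapse genes depended on dim members. Of 19 semaphorin, ephrin and guidance genes, 11 were higher and 5 lower, with a relative median of 0.94. Over the 6 members above background on all arrays, the relative median was -0.78. SEMA3A and SEMA3C, secreted guidance proteins, were at least 6.77-fold and 6.96-fold higher, and DPYSL2, a mediator of semaphorin signals, fell by 3.15. The 2 probes for the netrin receptor UNC5B disagreed. Of 15 synapse and vesicle genes, 7 were higher and 5 lower, with a relative median of 0.75. Over the 8 members above background throughout it was -0.11, the same as over all genes above background throughout. SYT11, a synaptotagmin, fell by 6.73.

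Cytokine genes behaved similarly. Of 20 cytokine receptor genes, 12 were higher and 2 lower, with a relative median of 1.02, which was 0.10 over the 11 members above background on all arrays. IL6R, the ligand-binding interleukin-6 receptor, read 2.41 and 2.86 in BCL6KO and -0.11, -0.11 and -0.17 in WT. IL6ST, the signalling chain gp130, read -2.27 and -2.79 against -5.0, -5.08 and -5.24. Both chains of that receptor were higher on each BCL6KO array. LIFR, which also pairs with gp130, was at least 6.68-fold higher. A further 19 genes were grouped by the names of interleukins and chemokines, which brings in some receptors, among them IL6R and EDA2R. In this group 13 were higher and none lower, with a relative median of 0.91, and 4 were not above background in WT. Over the 10 members above background on all arrays, 6 were higher and none lower, and the relative median was 0.48. CCL1, a chemokine, read 4.49 and 4.84 in BCL6KO and -0.29, -0.47 and -0.43 in WT, a rise of 5.06 ± 0.14 (limma adjusted p = 3.41e-05).

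Of 37 genes of retinoid, steroid and thyroid hormone metabolism, 23 were higher and 5 lower, with a relative median of 0.90 and 9 not above background in WT. Over the 20 members above background on all arrays, 9 were higher and 3 lower, and the relative median was 0.42. Genes tied to the aryl hydrocarbon receptor were not counted as a list, and the 3 named here were read as bounds. AHRR, the repressor of that receptor, read -0.38 and -0.92 in BCL6KO and -6.68, -6.56 and -6.24 in WT, where it was not above background. CYP1A1, an oxidase induced by the receptor, read -9.94 and -9.36 against -4.40, -4.17 and -4.24. CYP1A2 read -10.22 and -9.65 against -4.74, -4.36 and -4.71. AHRR was at least 54.95-fold higher, while CYP1A1 and CYP1A2, on no BCL6KO array above background, were at least 10.6-fold and 8.42-fold lower. With normexp correction on the backgrounds as recorded, the sign turned for both CYP1A genes and for CD38, COL1A2, LAT2, PTPN22 and TF, none of them called there. DIO2, the deiodinase that activates thyroid hormone, and the receptor gene THRB were at least 619.5-fold and 17.3-fold higher, although another THRB probe was above background in WT.

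**Figure D4:**
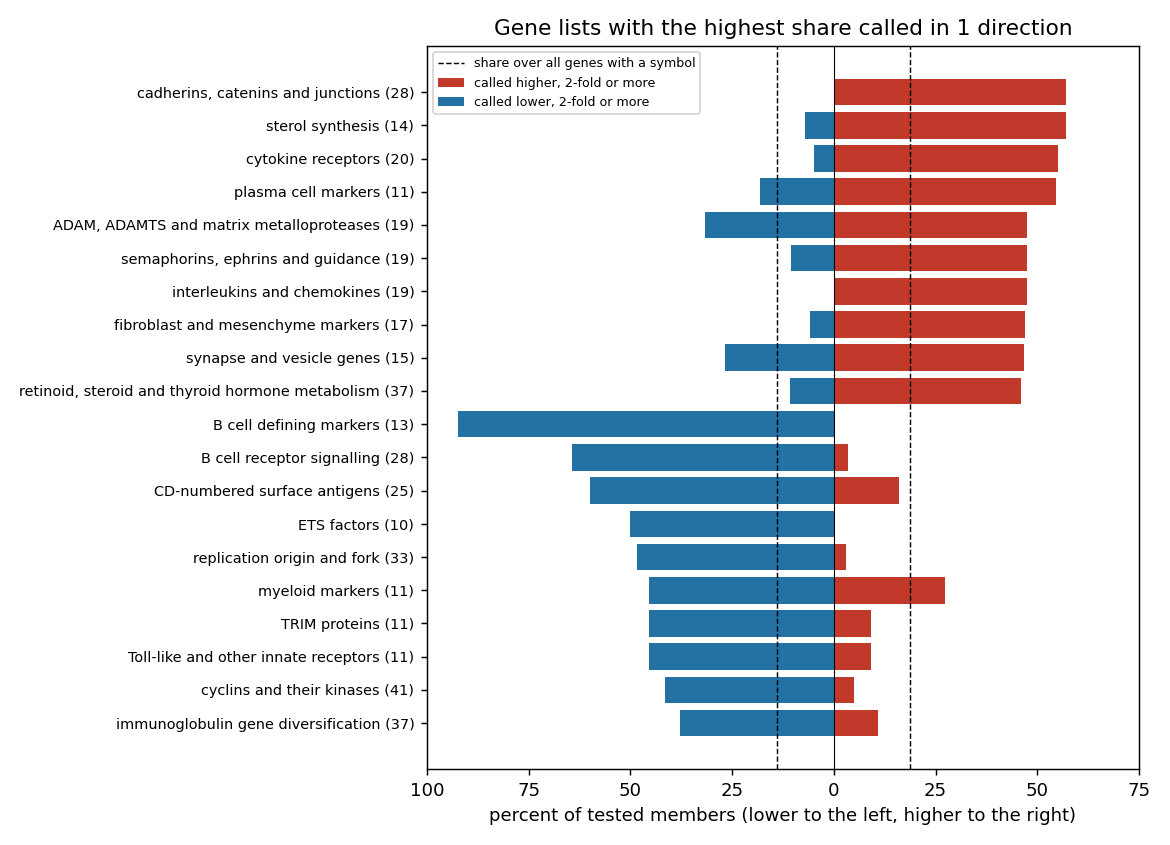
Percent of the tested members (number in brackets) of 20 gene lists called higher (red, to the right) or lower (blue, to the left) at 2-fold or more. Some lists share members. Dashed lines mark the shares over all 4311 genes with a symbol, 18.8% higher and 14% lower; the lists are the 10 with the highest share in each direction among lists of at least 10 tested genes.

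Markers of other cell types were read beside these lists, as the summed linear level of each list on each array, where 1 is the 75th percentile signal. In bulk RNA, fewer cells of a type and less RNA per cell cannot be told apart. The 13 tested B cell markers summed to 32.6 and 52.2 in BCL6KO and 155 to 170 in WT, and 12 were lower, all by 2-fold or more. The relative median of the list was -6.83. The WT sums were led by CD79B and the BCL6KO sums by POU2AF1, a coactivator of B cell octamer factors. POU2AF1 was the 1 marker not called and differed by 0.28. The lowest difference in this list, -9.68, was also the lowest in the B cell receptor and CD-numbered lists. PAX5, the factor that commits cells to the B lineage, was above background on no BCL6KO array and at least 30.8-fold lower. The 8 T cell markers summed to 1.73 and 3.29 against 68 to 70.4, with 4 lower, 2 higher and CD3D leading the sum in both groups. Of the 11 myeloid markers, 5 were lower and 4 higher, and 7 were above background on all 5 arrays. The 10 with no missing value summed to 0.68 and 1.56 against 1.84 to 1.90. The BCL6KO sum was led by CEBPB, whose call was lost under several other settings.

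The 17 fibroblast and mesenchyme markers summed to 6.90 and 8.55 in BCL6KO and 0.61 to 0.69 in WT, with 12 higher and 1 lower. Of these 17, 9 were above background on no WT array and passed the filter through BCL6KO alone, and of the 5 above background on all arrays 2 were higher and 1 lower. CDH11, a mesenchymal cadherin, led that sum in BCL6KO and was not above background in WT. The fibroblast marker DCN was above background on the BCL6KO arrays alone but was not called, and COL1A2 was the 1 that fell, by 1.53. The 11 neuron and muscle markers summed to 3.75 and 4.80 against 37.6 to 40.9, led in WT by STMN2 and in BCL6KO by SYNM. Of these 11, 5 were higher and 3 lower, and the relative median was 0.43, opposite in direction to the sum. The 7 erythroid and thrombocyte markers summed to 1.06 and 1.07 against 0.60 to 0.72, with 3 higher and none lower. The 8 epithelial and endothelial markers summed to 1.28 and 1.45 against 0.75 to 0.86, with 1 higher and 1 lower. The part of the fibroblast markers in the higher matrix, cadherin and guidance lists was not tested.

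Some other large families had relative medians close to 0. Of 43 chaperonins and heat shock proteins, 11 were higher and 13 lower. Of 50 genes of ESCRT and endosome sorting, 13 were higher and 19 lower. Of 34 MAP kinases and their phosphatases, 8 were higher and 10 lower, and of 19 deubiquitinases 5 were higher and 4 lower. Their relative medians were -0.08, -0.13, -0.02 and -0.02. For 22 caspases and apoptosome genes, 6 higher and 4 lower, and for 35 cilium and centrosome genes, 13 higher and 11 lower, relative medians were -0.09 and 0.03. Other families were lower more often than higher. Proteasome genes were lower for 8 of 25, 32% against 32.1% over all genes with a symbol. They were higher for 2, 8% against 34.5%, and none changed by 2-fold. Of 41 splicing factors, 19 were lower and 4 higher, and of 40 cullin and F-box ligase genes 20 were lower and 8 higher. Of 44 genes of histone acetylation and its readers, 21 were lower and 7 higher, and of 32 genes of excision, mismatch and end joining repair 17 were lower and 7 higher. Relative medians of these 5 lists were -0.29, -0.40, -0.39, -0.37 and -0.45.

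Changes were not spread evenly over the genome. The median difference was taken over genes above background on all 5 arrays that could be placed on a chromosome, 3652 in all, using gene positions of assembly GRCg7b for the 28 chromosomes with at least 30 such genes. The median over all placed genes was -0.05, and 35.4% of them were called lower and 29.6% higher. On chromosome 10, the median of 100 genes was -0.81 and -0.64 on the 2 BCL6KO arrays, and 66% of them were called lower and 9% higher. On chromosome 6, the median of 110 genes was -0.66 and -0.57, with 63.6% lower. On chromosome 19, the median of 84 genes was -0.62 and -0.57, with 64.3% lower. Both BCL6KO arrays showed these shifts, while the median of any WT array against the other WT arrays stayed between -0.045 and 0.068 on all 28 chromosomes.

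Chromosomes 3 and 9 were lower by smaller amounts, with medians of -0.49 over 293 genes and -0.46 over 102. Chromosome Z was higher, with a median of 0.43 over 153 genes and 54.2% of them called higher, and chromosome 24 likewise, with 0.50 over 41 genes. When chromosomes 3, 6, 9, 10, 19 and Z were split into 3 stretches of equal gene number along their length, each stretch was shifted the same way. The first, middle and last stretch of chromosome 10 had medians of -0.90, -0.66 and -0.45, and those of chromosome 6 had -0.69, -0.67 and -0.56. Chromosome 20 had a median of -0.36 over 87 genes, and chromosomes 11 and 21 had 0.32 and 0.33 over 104 and 67. Chromosomes 1 and 2 had medians of 0.006 and 0.004 over 518 and 320 genes. The DKO arrays share the WT arrays as controls and were read with the same Feature Extraction version as WT, unlike the BCL6KO arrays. Their medians were 0.04, 0.04 and 0.06 on chromosomes 10, 6 and 19, -0.39 and -0.76 on chromosomes 3 and 9, and 0.27 on Z. On chromosomes 2 and 23 the DKO medians were -0.34 and 0.43, where those of BCL6KO were 0.004 and -0.10. The copy number of the chromosomes was not measured, and its part in these medians was not tested.

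**Figure D5:**
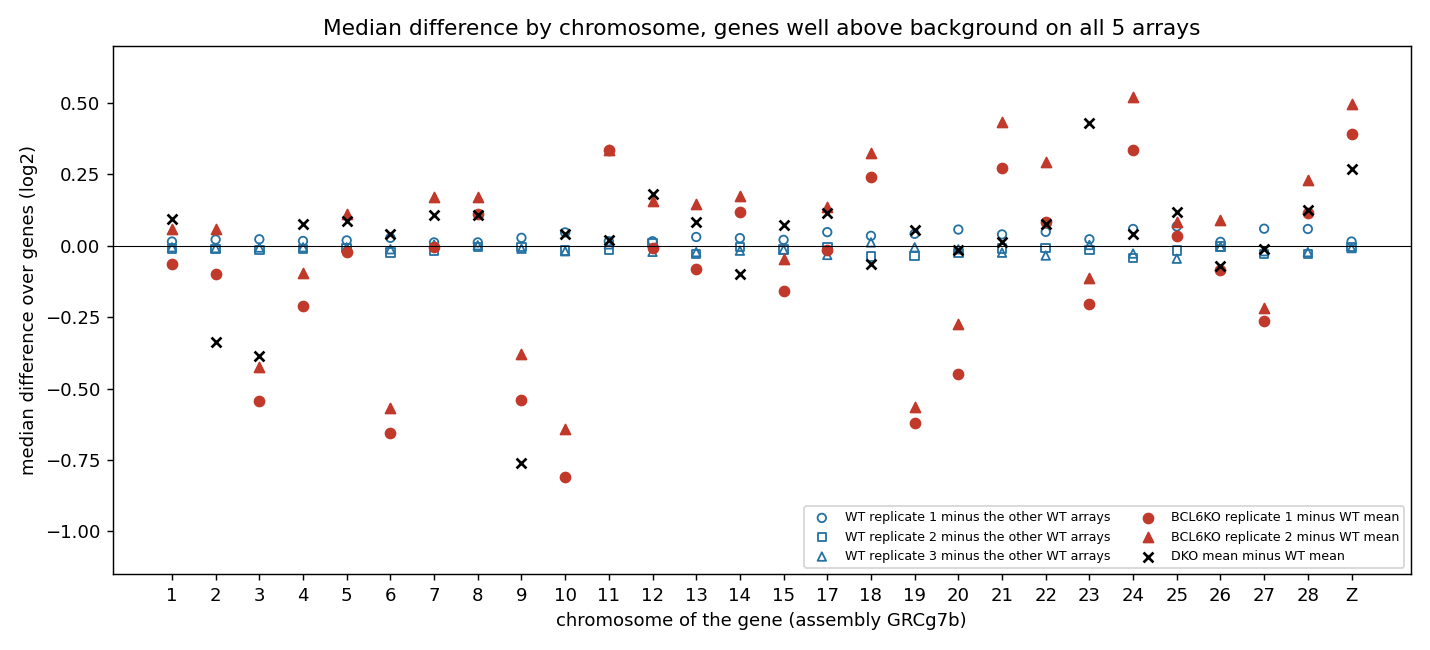
Median difference over genes (vertical axis, log2) for each of 28 chromosomes of assembly GRCg7b (horizontal axis). Red symbols are the 2 BCL6KO arrays against the WT mean, blue open symbols each WT array against the other WT arrays and black crosses the DKO mean against the WT mean; on chromosomes 6, 10 and 19 the red symbols lie low with the crosses near 0, and on chromosomes 3 and 9 both lie low.

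The list medians were also computed with each gene taken relative to the median of its chromosome, over list members above background on all arrays that could be placed, and compared with the same members' medians relative to all placed genes. Of 61 lists, 49 moved by less than 0.2 (log2), and the median size of the move was 0.12. The replication list went from -0.87 to -0.79, the sterol list from 1.28 to 1.1 and the cytokine receptor list from 0.21 to 0.15. Larger moves were found for B cell receptor signalling, from -3.04 to -2.75, for ETS factors, from -1.27 to -0.89, for NF-kB genes, from -0.74 to -0.48, for lipid droplet genes, from 0.86 to 0.54, and for metal transporters, from 0.65 to 0.95. The T cell markers, with 3 members placed, moved most, from -4.96 to -5.51, and antigen presentation, with 5 placed, went from -0.10 to -0.58. The sign turned in 4 lists, among them the BCL2 family, from -0.26 to 0.03, and integrins, from 0.12 to -0.02. Some medians of whole lists lay farther away because dim or unplaced members are left out here, as for the CD-numbered antigens, at -3.40 over 25 genes and -1.64 over the 16 placed.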

How the data were processed

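Total RNA of DT40 cells was measured on one-colour Agilent chicken arrays, and the deposited scanner files of the 2 BCL6KO and 3 WT arrays were used. Per the file headers, the authors' Feature Extraction software produced the processed intensity of each spot, already background-corrected, with flags for spots above background and outliers. The labels name biotin as the label, whereas their labelling protocol names Cy3. The authors' table of processed values was not used.

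Outlier spots and control spots were left out, so the fit of some genes rests on fewer than 5 arrays. Intensities were converted to log2, the 75th percentile of each array over non-control spots was subtracted, repeated spots of a probe were averaged, and probes well above background on at least 2 of 5 arrays were kept. The brightest probe stood for a gene. limma 3.58.1 in R 4.3.3 fitted a mean per genotype, with Benjamini-Hochberg adjustment over 23547 entries. Symbols came from RefSeq, matched by the accession that the files give for each probe. The fit was tried on simulated data of 23521 entries with the spread of this comparison. It called 38 of 100 entries changed by 1 on the log2 scale, 64 of 100 changed by 2, and 3 unchanged entries. Far fewer entries were changed there than the 15464 called here, and the adjusted p depends on that share. These figures therefore do not give the power or the false calls of the comparison itself.

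The members of the 144 gene lists, some of them picked by symbol pattern, and the lists themselves were chosen with earlier results of these data known, and no list was tested as a set. Genes were named by a rule. It took BCL6, IRF4 and cell type markers, up to 3 called members of largest change in each direction per list among those above background on all 5 arrays, up to 2 bounds per direction, and the 12 largest changes and 8 largest bounds in each direction over all genes. Alternatives changed the scaling, the background correction, the filter on dim probes, the samples in the fit, the replicates, the minimum change and the probe summary. Normexp used the median spot signal, with an offset of 50. Deviations of same-numbered arrays from their group means correlated at -0.061 and -0.018. With only 2 BCL6KO arrays their deviations mirror each other, so this check cannot decide whether replicate numbers pair the genotypes.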

Additional observations from a re-analysis of the deposited data

How the results depend on the processing

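The total of 15464 calls ranged from 12400 to 17347 when 1 array was left out, with 7736 to 10646 higher and 4664 to 7315 lower, and the total at 2-fold or more from 8071 to 8631, with 5183 to 5800 higher and 2724 to 3038 lower. With limma's test against a minimum fold of 1.5 it was 7905, with 5055 higher and 2850 lower. With normexp on the backgrounds as recorded, 1652 were called, 1266 higher and 386 lower, all at 2-fold or more. With extreme backgrounds replaced, 3689 were higher at 2-fold or more, and with the filter on all 5 arrays 5016 were called at 2-fold or more, 2764 of them higher. With the replicate number as a block, 11052 were called (7036 higher and 4016 lower), and whether the numbers pair the samples was not settled. With normexp on the backgrounds as recorded, 56 of 137 named genes kept their direction but lost their call, and the log2 change turned to 0.54 for CD38, 0.023 for COL1A2, 0.87 for CYP1A1, 1.01 for CYP1A2, 0.72 for LAT2, 1.27 for PTPN22 and 0.18 for TF. That of PTGS2, which was not called, was -0.79 with all arrays, 0.70 without BCL6KO replicate 2 and -2.28 without BCL6KO replicate 1. Under the other 16 settings, calls were lost for CEBPB, ITPR1 and TAPBP. List medians moved as well. With normexp on recorded backgrounds, the relative median went from -0.74 to -0.08 for innate receptors and from -3.40 to -0.35 for CD-numbered antigens. Others grew larger, as for cytokine receptors, from 1.02 to 2.17. With cyclic loess the relative median fell from 0.91 to 0.24 for interleukins and chemokines and from 0.43 to -0.25 for neuron and muscle markers. The slide could not be used as a block, since each array has a slide of its own, and promoter motifs were not run. The causes were not tested. Levels near background limit the fold changes of dim genes, and 2 BCL6KO arrays limit every call.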

Other observations

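The 2 BCL6KO arrays differed from each other more than WT arrays did. Of 3658 genes with a symbol that were above background and not missing on any of the 5 arrays, 92 differed by at least 2-fold between the BCL6KO arrays, against 10, 13 and 18 between the pairs of WT arrays. At least 4-fold differences were found in 20 genes, against 4, 3 and 6, and all 20 were higher on replicate 1. These genes were chosen after their values were seen. They included the ATF4-linked genes CEBPB and CHAC1, the prostaglandin synthase PTGS2 and the TNF receptor gene TNFRSF8. PTGS2 read -3.83 on replicate 1 and -6.81 on replicate 2, and CHAC1 read 6.25 and 3.66. Of the 19236 tested entries without a symbol, 8003 were higher and 4589 lower, with a median of 0.29, and they are not described by name here.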
